A study of Rattus norvegicus with 12 samples.

Results

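The comparison was between lungs of rats after trauma and hemorrhagic shock (T/HS) and lungs of rats after trauma and sham shock (T/SS), with the mesenteric lymph duct untied in both. It took 6 of the 12 arrays of the study, 3 per group, chosen by their titles. T/HS replicates 1 and 3 were nearly alike, with a robust SD of log2 differences of 0.0548, and so were T/SS replicates 2 and 3, with 0.00993. Outside the 4 such pairs in the study, pairs of arrays had 0.164 to 0.294. Each near-identical pair was averaged and counted as 1 sample, which left 4 of the study's 8 samples: T/SS sample 1, T/SS sample 2+3, T/HS sample 1+3 and T/HS sample 2. With 2 samples against 2, an exact permutation test of a single value cannot give a two-sided p below 0.333.

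All were male Sprague-Dawley rats of 300 to 420 g with catheters in the femoral artery and jugular vein and a laparotomy, the trauma of the model. For T/HS rats the protocol gives pentobarbital (50 mg/kg) as the anaesthetic and 5 cm as the length of the laparotomy; for T/SS rats it names a laparotomy with no length and no anaesthetic, so no difference between the groups follows from these details. T/HS rats were bled to a mean arterial pressure of 30 mmHg for 90 min, and the shed blood, drawn into heparin, was then given back. T/SS rats lost no blood and so also received no heparinized blood, and their pressure stayed normal over a sham period of 90 min. Lungs were taken 3 h after that period, 4.5 h after its start; by the study's design text the T/HS rats had lung injury and the T/SS rats had none. A second pair of groups, T/HS-LDL and T/SS-LDL, had the lymph duct tied and divided and no lung injury; it serves below only as a set of other samples. Whole lung was used, so a value is a mean over all its cells, and fewer cells of a type cannot be told apart from less RNA per cell. The design text counts 3 rats per group, but the labels tie no array to an animal. The p-values therefore measure the spread within all 4 groups, tied-duct samples included, and that spread may be technical.

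Severe blood loss followed by resuscitation is known to injure organs that were never wounded, the lung among them. In the gut, poor blood flow damages the mucosa, and mesenteric lymph carries what leaves the gut past the liver and into the veins that feed the lung. In the lung, activated macrophages and endothelium make interleukin 1, chemokines and adhesion molecules, neutrophils gather in the capillaries, and the barrier between blood and air begins to leak.

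Values are intensities as the authors deposited them, made by robust multi-array averaging (RMA), and differences are on the log2 scale, where 1 is a doubling. Array medians lay between 651 and 680 intensity units. Lung identity was plain: probe sets for Sftpc, surfactant protein C, and Ager, a marker of alveolar type I cells, stood within 2% of the highest value on every T/HS and T/SS array, as 22 probe sets did, and such values have no room to differ. Intensity at the 3′ over the 5′ end of the Gapdh control transcript, a sign of RNA quality, was 2.11, 2.34 and 2.33 in the T/SS arrays and 1.98, 2.32 and 1.96 in the T/HS arrays. Of 8740 probe sets tested, 7006 carried 1 gene symbol and stood for 4736 genes. The median difference over genes was -0.01.

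No probe set passed an adjusted p of 0.05 in limma (0.0% of 8740), and the smallest adjusted p was 0.305, shared by 8 probe sets. At an unadjusted p under 0.05 there were 769 probe sets (8.8%). At an unadjusted p under 0.01 there were 75 higher in T/HS (0.858%) and 125 lower (1.43%). What follows therefore describes the samples, and no gene is called changed. The T/HS samples were both above the T/SS samples at 1679 probe sets (19.2%) and below both at 1825 (20.9%). With a difference of means over 2-fold as well, 76 were higher (0.87%) and 30 lower (0.343%). The higher ones leaned on T/HS sample 2, which was the higher T/HS sample at 70 of the 76. At 62 of the 76, and at 7 of the 30 lower ones, the T/HS samples lay over 2-fold apart. Against the sham mean, 32 probe sets were over 2-fold higher in T/HS sample 1+3, 192 in T/HS sample 2 and 17 in both. Over 2-fold lower were 54, 69 and 10.

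Interleukin 1 beta, a cytokine that macrophages release early in inflammation, showed the widest clear interval between the groups. Its gene, Il1b (chr3:137030200-137036581 in the rat build GRCr8), read 531 and 598 intensity units in the T/SS samples, 2654 in T/HS sample 1+3 and 6640 in T/HS sample 2. Even the lower T/HS sample was 4.44-fold above the higher T/SS sample, and the means differed by 7.45-fold (log2 2.90, SE 0.38, adjusted p = 0.305). All 3 probe sets of Il1b had groups that did not overlap, with log2 differences of 2.33, 2.90 and 2.53.

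Il1r2, the decoy receptor that binds interleukin 1 without signalling, read 1216 and 1357 in T/SS against 2710 and 5533 in T/HS. Casp1, the protease that cuts the interleukin 1 beta precursor, read 3999 and 3432 in T/SS, 4475 in T/HS sample 1+3 and 12980 in T/HS sample 2, so most of its difference lay in 1 sample; at its 2 other probe sets (log2 0.97 and 0.63) the groups overlapped. Il1rl1, the interleukin 33 receptor, differed little (log2 0.22, SE 0.14). Of 9 measured genes of interleukin 1 ligands and receptors, 5 were higher in both T/HS samples and 0 lower, where 18.7% of all genes were higher and 20.9% lower. The fifth was Il1rn, the natural receptor antagonist (log2 0.51, SE 0.20), named after its value was seen. The median of the list was 0.22, against -0.01 over all genes.

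Chemokines draw leukocytes out of the blood. Ccr1, a receptor for several inflammatory chemokines, read 449 and 476 in T/SS and 740 and 1557 in T/HS. Ccr2, the receptor that brings monocytes toward Ccl2, had a small and even difference, from 185 and 189 to 305 and 282 (log2 0.65, SE 0.09, adjusted p = 0.305). Ccl2 itself read 211 and 234 in T/SS, 358 in T/HS sample 1+3 and 3671 in T/HS sample 2. The receptor thus stood at a like level in both shocked samples, while its ligand was far higher in 1 of them. In the list of chemokines and chemokine receptors, 11 of 19 measured genes were higher in both T/HS samples and 2 lower, with a median of 0.24. Ccl5, which attracts T cells, went both ways, with 15480 in T/HS sample 1+3 and 7395 in T/HS sample 2 around 12550 and 10360 in T/SS.

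Of genes for Toll-like receptor signalling and NF-kB, the transcription factor behind much of the early inflammatory response, 8 of 10 measured were higher in both T/HS samples and 0 lower, with a median of 0.49, which was 0.21 without T/HS sample 2. Cd14, which hands bacterial lipopolysaccharide to Tlr4, read 3030 and 2448 in T/SS and 4690 and 8918 in T/HS (log2 1.25, SE 0.32). Tlr4 read 166 and 183 against 254 and 286. Lbp, the plasma protein that carries lipopolysaccharide to Cd14, read 643 and 844 against 970 and 1068. These 3 genes stood higher in both shocked samples, none past the threshold, and other members of the lipopolysaccharide route are not described here. Nfkb1 read 3872 and 3393 in T/SS against 4182 and 6476 in T/HS. Nfkbia, the inhibitor that NF-kB itself induces, overlapped between groups, with 14060 and 12950 against 15630 and 13650. Nos2, the inducible nitric oxide synthase, depended on the probe set: 1 read 413 and 512 in T/SS, 581 in T/HS sample 1+3 and 5813 in T/HS sample 2, while the 3 others differed by 0.13 to 0.16 on the log2 scale.

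**Figure D1:**
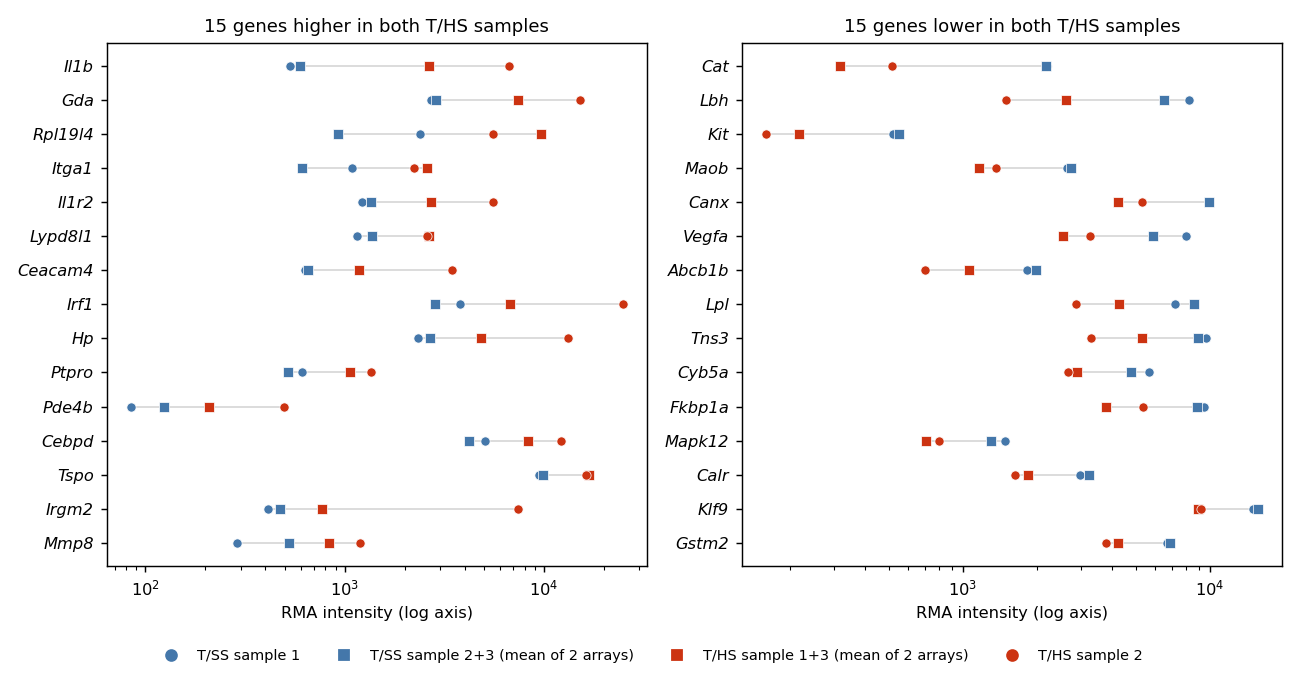
RMA intensity (log axis) in each of the 4 samples for the 15 genes with the widest interval between groups in each direction; blue marks T/SS, red marks T/HS, and squares are means of 2 near-identical arrays. Il1b leads the higher genes and Cat the lower ones, and in Irgm2, Irf1 and Hp, T/HS sample 2 lies far above T/HS sample 1+3.

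Neutrophil genes were higher as a group. Of 17 measured genes of neutrophil granules and activation, 12 were higher in both T/HS samples and 0 lower, with a median of 0.52. That median was 0.38 in T/HS sample 1+3 and 0.72 in T/HS sample 2, each against the sham mean. S100a8, a partner in the calcium-binding complex that fills the neutrophil cytosol, read 2312 and 3747 in T/SS and 5297 and 10730 in T/HS (log2 1.36, SE 0.36). Its partner S100a9 read 5624 and 10310 against 11980 and 25750, so the higher T/SS sample came close to the lower T/HS one. Mmp8, the neutrophil collagenase, read 288 and 523 against 838 and 1188. Lcn2, a granule protein that withholds iron from bacteria, read 11150 and 10090 against 14830 and 27300. Alox5ap, needed to make leukotrienes, read 3655 and 3874 against 6672 and 5222 with T/HS sample 1+3 the higher one. The groups of all 5 genes did not overlap, and none passed the threshold. Summed over the 17 genes, intensity was 39788 and 45442 in T/SS and 59470 and 96747 in T/HS, with no marker at 0. Macrophages and neutrophils both make interleukin 1 beta, and the part of neutrophil numbers in the Il1b and Il1r2 values was not tested.

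Of 18 measured monocyte and macrophage genes 8 were higher in both T/HS samples and 2 lower, with a median of 0.15. Fcgr2b, an inhibitory receptor for antibody complexes, read 511 and 466 in T/SS and 754 and 2091 in T/HS. Hmox1, the enzyme that breaks down heme, read 1863 and 1726 against 2637 and 8103. Lyz2, the macrophage lysozyme, stood at the top of the range in every T/HS and T/SS sample. Leukocyte adhesion molecules had no common direction, with 2 of 13 higher and 3 lower. Selp, the endothelial P-selectin that first slows neutrophils, read 579, 581 and 608 in both T/SS samples and T/HS sample 1+3, and 3957 in T/HS sample 2.

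Genes of the acute phase, the early rise of plasma proteins after injury, held 8 higher and 2 lower of 24 measured, with a median of 0.10, which was 0.05 without T/HS sample 1+3. Hp, haptoglobin, which binds free hemoglobin, read 2323 and 2692 in T/SS and 4798 and 13240 in T/HS (log2 1.67, SE 0.43). Serpina3n, a protease inhibitor, read 731 and 907 against 1383 and 2263. Cebpd, a transcription factor of the acute phase response, read 5080 and 4217 against 8327 and 12180, and Junb, of the AP-1 family, 3542 and 2554 against 4636 and 6073. Alb, a marker of liver, differed by 0.01 on the log2 scale at the probe set that stands for it here. The groups of Hp, Serpina3n and Junb did not overlap. Cebpd was apart at 2 of its 3 probe sets (log2 1.12 and 0.98) and overlapped at the third (0.07), and 2 of the 4 Alb probe sets overlapped (0.01 and -0.08) while the other two were slightly higher (0.15 and 0.23). Among immediate early transcription factors as a list, 6 of 27 were higher (22.2%, against 18.7% of all genes) and 2 lower (7.41%, against 20.9%).

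Several other genes stood among the 15 with the widest interval above T/SS. Gda, guanine deaminase, which turns guanine into xanthine, read 2721 and 2873 in T/SS and 7367 and 15180 in T/HS (log2 1.92, SE 0.36). A second probe set of the gene gave 1.39 and the third 0.08. Itga1, the alpha 1 chain of a collagen-binding integrin, read 1083 and 609 against 2590 and 2231. Pde4b, which breaks down cyclic AMP, read 84.8 and 124 against 210 and 495, with higher values in both T/HS samples at all 4 of its probe sets. Ceacam4, of a family of cell adhesion molecules, read 634 and 652 against 1182 and 3452, and Ptpro, a receptor tyrosine phosphatase, 610 and 520 against 1061 and 1362 at 1 of its 3 probe sets. The groups of these probe sets did not overlap; the other Ptpro probe sets gave 0.36, also apart, and 0.02, with groups that overlapped. Lypd8l1 read 1147 and 1364 against 2642 and 2594. Tspo, a protein of the outer mitochondrial membrane, read 9431 and 9859 against 16810 and 16140, nearly level within each group. Rpl19l4, a ribosomal protein L19-like gene, read 2392 and 927 against 9615 and 5564, and its T/SS samples differed from each other by 1.37 on the log2 scale. The smallest unadjusted p of all (5.58e-05, adjusted p = 0.305) belonged to a probe set with no gene symbol, rc_AI176456_at, which read 4266 and 4168 in T/SS, 17460 in T/HS sample 1+3 and 31400 in T/HS sample 2, the top of that array's range.

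The T/HS samples did not resemble each other in interferon responsive genes, which carry out the antiviral and antigen-presenting response to interferons. Of 18 measured, 11 were higher in both T/HS samples and 0 lower, and the median was 1.50. Against the sham mean, however, the median was 0.21 in T/HS sample 1+3 and 2.67 in T/HS sample 2, where 15 of the 18 genes were over 2-fold higher, against 1 in T/HS sample 1+3. The list's count and median thus describe mainly 1 sample. Across all probe sets, 206 were over 2-fold higher in T/HS sample 2 than in T/HS sample 1+3 and 45 over 2-fold lower, while the T/SS samples differed by over 2-fold at 40.

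Cxcl10, an interferon-induced chemokine for T cells, read 192, 179 and 279 in both T/SS samples and T/HS sample 1+3, and 30950 in T/HS sample 2, close to that array's highest value, which was 31398. T/HS sample 2 was at least 111-fold above T/HS sample 1+3, since a value this near the top has no room above. Rsad2, the antiviral protein viperin, read 886, 887 and 881 against 31400, at the top of the array, so its ratio of 35.6 has no room above. Mx1, a GTPase that blocks influenza virus, read 593, 658 and 887 against 22180. Gbp2, a guanylate-binding protein of host defense, read 188, 154 and 225 against 5653. In each of these genes the averaged T/HS sample lay near the sham samples. Irf7, which amplifies interferon production, read 339 and 338 in T/SS, 476 in T/HS sample 1+3 and 5156 in T/HS sample 2. Tap1, the peptide pump of antigen presentation, read 1995 and 1539, then 1614 and 17940. Eif2ak2, the double-stranded RNA sensor kinase, read 761 and 887, then 740 and 6115. Irf1, the interferon regulatory factor that NF-kB also induces, differed: it read 3784 and 2841 in T/SS and was above both in T/HS sample 1+3 (6762) as well as in T/HS sample 2 (24780).

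**Figure D2:**
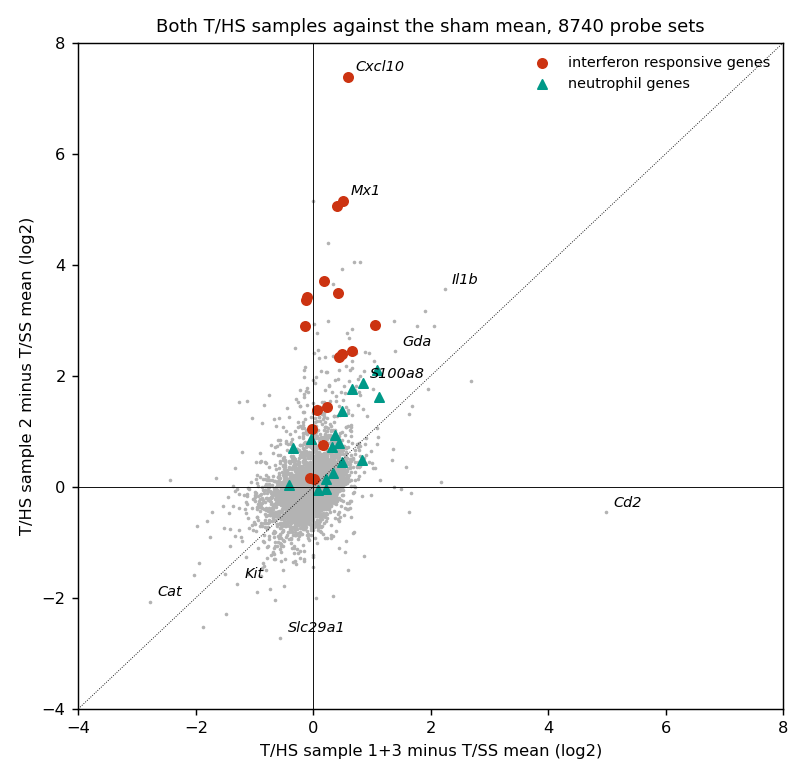
Log2 difference of T/HS sample 1+3 (horizontal axis) and of T/HS sample 2 (vertical axis) from the T/SS mean for 8740 probe sets (grey), with interferon responsive genes as red points and neutrophil genes as green triangles; the dotted line marks equal differences. Interferon responsive genes run up the vertical axis to Cxcl10, neutrophil genes lie closer to the line, and Cd2 stands alone to the right.

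Promoters of 3 of these genes are shown because each holds a short sequence that was in more of the promoters of genes far higher in T/HS sample 2 than of all promoters, though in a minority of them. They are the 250 bases before the start in RefSeq (build GRCr8), for Cxcl10 at chr14:15988816-15989065 on the plus strand, Gbp2 at chr2:234005477-234005726 on the plus strand, and Irf7 at chr1:205800024-205800273 on the minus strand. Capitals mark GAAANNGAAA on either strand, the core of the interferon-stimulated response element.
Cxcl10: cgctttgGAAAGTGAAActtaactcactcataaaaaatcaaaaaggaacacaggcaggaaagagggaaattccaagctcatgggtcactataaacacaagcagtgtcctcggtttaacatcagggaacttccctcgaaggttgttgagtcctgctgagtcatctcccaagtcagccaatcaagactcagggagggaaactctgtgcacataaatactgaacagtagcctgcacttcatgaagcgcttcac
Gbp2: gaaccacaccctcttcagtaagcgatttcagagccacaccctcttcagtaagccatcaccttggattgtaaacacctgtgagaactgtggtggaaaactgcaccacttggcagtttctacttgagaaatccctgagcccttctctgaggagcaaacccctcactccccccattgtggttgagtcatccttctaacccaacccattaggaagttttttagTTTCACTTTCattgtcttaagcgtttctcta
Irf7: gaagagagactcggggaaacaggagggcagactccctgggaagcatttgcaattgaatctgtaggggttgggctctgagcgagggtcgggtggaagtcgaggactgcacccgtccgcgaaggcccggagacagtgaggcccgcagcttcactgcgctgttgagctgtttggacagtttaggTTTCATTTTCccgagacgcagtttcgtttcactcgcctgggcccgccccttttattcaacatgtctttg
The match began 243 bases before the start in Cxcl10, 31 in Gbp2 and 69 in Irf7.

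The motif was searched on both strands in windows of 300 bases (250 before and 50 after the start), 1 window per gene, with no other motif searched. It was in 3.79% of 27457 genes with a promoter and in 3.17% of 3879 genes on the array. Of 127 genes over 2-fold higher in T/HS sample 2 than in T/HS sample 1+3, 105 had a promoter, and 19 of those (18.1%) held it. Those 19 included Cxcl10, Rsad2, Gbp2, Tap1, Irf7, Irgm2, Eif2ak2, Oas1a and Tap2; Mx1 and Il1b did not hold it in this window. Of 29 genes over 2-fold lower in T/HS sample 2, 22 had a promoter and 0 held it. Among genes with both T/HS samples above both T/SS samples and a difference of means over 2-fold, 12 of 43 with a promoter held it (27.9%), and 0 of the 11 whose T/HS samples lay within 2-fold of each other. The genes were chosen by their values and the match is a description.

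Other differences between the T/HS samples ran the opposite way. Cd2, a T cell surface receptor, read 144, 150 and 107 in both T/SS samples and T/HS sample 2, and 4655 in T/HS sample 1+3, 43.6-fold above T/HS sample 2. The list of T and NK cells, 22 measured genes, split the same way by far smaller amounts. Its median was 0.17 in T/HS sample 1+3 and -0.14 in T/HS sample 2, against 0.04 and -0.05 over all genes. Cyp2e1, a drug-metabolizing cytochrome, read 1529 and 965 in T/SS, 1536 in T/HS sample 1+3 and 311 in T/HS sample 2. Hpgd, which inactivates prostaglandins, read 509 in each T/SS sample, then 691 and 236. Dbp, a clock output gene, read 384 and 324, then 1112 and 326. A difference of means says little about these genes, since the T/SS values lie between the T/HS values or beside 1 of them.

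Genes lower after shock were led by Cat, catalase, which breaks down hydrogen peroxide (chr3:110297340-110329526). Its probe set with the widest interval read 2182 and 2163 in T/SS against 318 and 518 in T/HS, a 5.36-fold lower mean (log2 -2.42, SE 0.45, adjusted p = 0.373). A second Cat probe set read 997 and 701 against 332 and 454 (log2 -1.11). The third read 122 and 115 against 120 and 123 (log2 0.04). Lbh, a transcriptional cofactor, read 8186 and 6493 against 2614 and 1488. Kit, the receptor for stem cell factor, read 522 and 552 against 218 and 160 (log2 -1.52, SE 0.21, adjusted p = 0.305), and its other probe set had a difference of -0.57. Maob, which oxidizes amines, read 2640 and 2736 against 1161 and 1365.

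Among antioxidant and thiol enzymes 14 of 35 measured genes were lower in both T/HS samples and 3 higher, with a median of -0.11. That median was -0.08 without T/HS sample 2 and -0.21 without T/HS sample 1+3. Gpx2, a glutathione peroxidase, read 8221 and 8378 in T/SS against 6044 and 4427 in T/HS. Gstm2, a glutathione transferase, read 6684 and 6877 against 4221 and 3808. Gpx3, the secreted peroxidase, was near the top of the range and overlapped at 1 probe set (log2 -0.04) and was lower at the other (-0.44). Hmox1, given above, was the exception with the widest interval upward. Most genes of the list overlapped between groups.

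Heat shock proteins and folding chaperones held 17 lower and 3 higher of 32 measured genes, with a median of -0.23. Canx and Calr, the lectin chaperones that fold glycoproteins in the endoplasmic reticulum, were both among the 15 lower genes with the widest interval. Canx read 9886 and 9927 in T/SS against 4228 and 5318 in T/HS (log2 -1.06, SE 0.18, adjusted p = 0.373). Calr read 2980 and 3229 against 1835 and 1619. Pdia6, a disulfide isomerase of the same compartment, read 8167 and 7644 against 6141 and 6034. Cryab, a small heat shock protein of muscle, read 4363 and 4542 against 3068 and 2775, and Hspb1 18770 and 19720 against 15440 and 14630. Hsp90ab1, the cytosolic chaperone of steroid receptors and kinases, read 29090 and 29260 against 27150 and 22190. At the probe sets printed these chaperones lay lower in both T/HS samples, by 2.09-fold for Canx and less for the others. Cryab (log2 0.19), Hspb1 (-0.29) and Hsp90ab1 (-0.22) each had 1 further probe set whose groups overlapped. The list median was -0.21 in T/HS sample 1+3 and -0.16 in T/HS sample 2. With the duct tied the median was 0.05, with 3 of the 32 higher and 6 lower, where 16.8% of all probe sets were higher and 12.4% lower.

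The mitochondrial respiratory chain and ATP synthase list held 15 lower and 3 higher of 31 measured genes, with a median of -0.13. Ndufc1, a subunit of complex I, read 3854 and 3344 in T/SS against 1686 and 2133 in T/HS (log2 -0.92, SE 0.15, adjusted p = 0.373), and its second probe set gave -0.62. Ndufb1, also of complex I, read 5506 and 5147 against 3029 and 4096. Cox8a, of cytochrome oxidase, read 26990 and 26840 against 19410 and 23520. Cox4i1, of the same complex, was slightly higher, with 24870 and 25060 against 25850 and 25280. Differences in the list ran from -0.92, for Ndufc1, to 0.28. Ribosomal proteins, by comparison, had 10 of 35 lower and 4 higher and a median of -0.03.

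Genes of the vessel wall, and of a growth factor that acts on it, were lower in part. Vegfa, the growth factor that keeps endothelium alive and also opens its junctions, read 7980 and 5851 in T/SS against 2551 and 3276 in T/HS (log2 -1.24, SE 0.22, adjusted p = 0.373). Kdr, its main receptor, read 3422 and 2605 against 2172 and 1916. Klf4, an endothelial transcription factor that also marks other cells, read 3068 and 2687 against 1812 and 1651 (log2 -0.73, SE 0.11, adjusted p = 0.305). Sox17, a marker of arterial endothelium, read 1104 and 955 against 791 and 622. Of the 4 Vegfa probe sets 3 were lower in both T/HS samples (log2 -1.24, -1.21 and -0.82), and the fourth overlapped (log2 -0.19). The probe sets printed for Kdr, Klf4 and Sox17 were lower in both T/HS samples. Ace, the endothelial angiotensin-converting enzyme, did not: it read 24020 and 23650 against 25470 and 21720. Of 19 measured endothelial genes 7 were lower and 2 higher, with a median of -0.11. That median rested on T/HS sample 2: without it the median was -0.011, and without T/HS sample 1+3 it was -0.23. Tfpi, the endothelial brake on coagulation, read 404 and 302 against 195 and 192, while the coagulation list as a whole had 6 lower and 5 higher of 26.

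In smooth muscle and pericytes 5 of 14 measured genes were lower and 1 higher, with a median of -0.19. The T/SS samples themselves differed by a median of -0.28 in this list (T/SS sample 1 minus T/SS sample 2+3). The median was -0.05 without T/SS sample 2+3, -0.06 without T/HS sample 2, -0.30 without T/HS sample 1+3 and -0.37 without T/SS sample 1. Acta2, smooth muscle actin, read 14950 and 19870 in T/SS against 13300 and 11910 in T/HS. Eln, elastin, read 28240 and 29750 against 20980 and 20310. The matrix list as a whole had no common direction, with 11 of 40 higher and 7 lower: Vcan, the proteoglycan versican, read 276 and 313 against 487 and 1027.

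Markers of alveolar cells gave a mixed account. Of 6 measured type I genes 3 were lower and 0 higher, with a median of -0.29. Without T/HS sample 2 the median was -0.12. Aqp5, the water channel of type I cells, read 7835 and 8082 in T/SS against 5441 and 3824 in T/HS (log2 -0.80, SE 0.38), and Pdpn, podoplanin, 6308 and 6692 against 4931 and 4655. For type II cells 3 of 14 were higher and 2 lower, with a median of 0.01. Chia, an acidic chitinase, read 2733 and 5195 against 7037 and 6969, and Nkx2-1, the transcription factor of lung epithelium, 7624 and 7821 against 6009 and 7027. Scgb1a1, the secretory protein of airway club cells, was nearly level, with 25780 and 25800 against 24830 and 24740. Cyp4b1 and Ces1d, enzymes of the airway epithelium, were lower: Cyp4b1 read 10850 and 11060 against 5680 and 8879. The list of airway club and ciliated cells had 4 lower and 2 higher of 14 measured genes. Its median was -0.05, which was 0.009 without T/HS sample 2.

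Mast cell genes were lower in 6 of 11 measured and higher in 1, with a median of -0.27. Without T/HS sample 2 the median was -0.09. With the duct tied it was 0.11, with 1 lower and 4 higher, where 12.4% of all probe sets were lower and 16.8% higher. Tpsb2, a mast cell tryptase, read 2197 and 2604 in T/SS against 1618 and 1937 in T/HS. Cpa3, mast cell carboxypeptidase, read 354 and 471 against 314 and 267, and Mcpt1, a chymase, 371 and 539 against 322 and 274. Kit, which mast cells carry, belongs to this list, and Cma1 did not follow, with 482 and 516 against 508 and 498.

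Lipid handling genes had 16 lower and 5 higher of 53, with a median of -0.04, which was 0.02 without T/HS sample 2. Lpl, lipoprotein lipase, read 7208 and 8616 in T/SS against 4281 and 2866 in T/HS (log2 -1.17, SE 0.26, adjusted p = 0.392), and its 3 probe sets gave -1.17, -1.25 and -1.28. Acadm, of fatty acid oxidation, read 1871 and 2185 against 1420 and 1162. Genes of drug and xenobiotic metabolism had 16 lower and 8 higher of 45. Abcb1b, a multidrug efflux pump, read 1821 and 1966 against 1061 and 704. Fmo1, a flavin monooxygenase, read 7893 and 6881 against 4664 and 1802, and Slc29a1, a nucleoside transporter, 8009 and 7463 against 5234 and 1174. For these last 3 T/HS sample 2 was the lowest sample.

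Signalling and cell cycle genes added a few even differences. Mapk12, a p38 MAP kinase, read 1485 and 1304 in T/SS against 707 and 802 in T/HS (log2 -0.89, SE 0.11, adjusted p = 0.305), but its other probe set read 423 and 441 against 427 and 318. Map2k6, an upstream kinase of p38, read 1347 and 1196 against 962 and 955. Stmn1, which destabilizes microtubules, read 2528 and 2916 against 1689 and 1185. Klf9, a target of glucocorticoids, read 14900 and 15610 against 8966 and 9181. Btg1, which slows growth, went the other way, with 7904 and 8656 against 13090 and 14350. The MAP kinase and cell cycle lists, which do not hold all the genes named here, had no strong common direction. In them 4 of 18 MAP kinase genes were higher and 4 lower, and 4 of 19 cell cycle genes were higher and 6 lower.

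**Figure D3:**
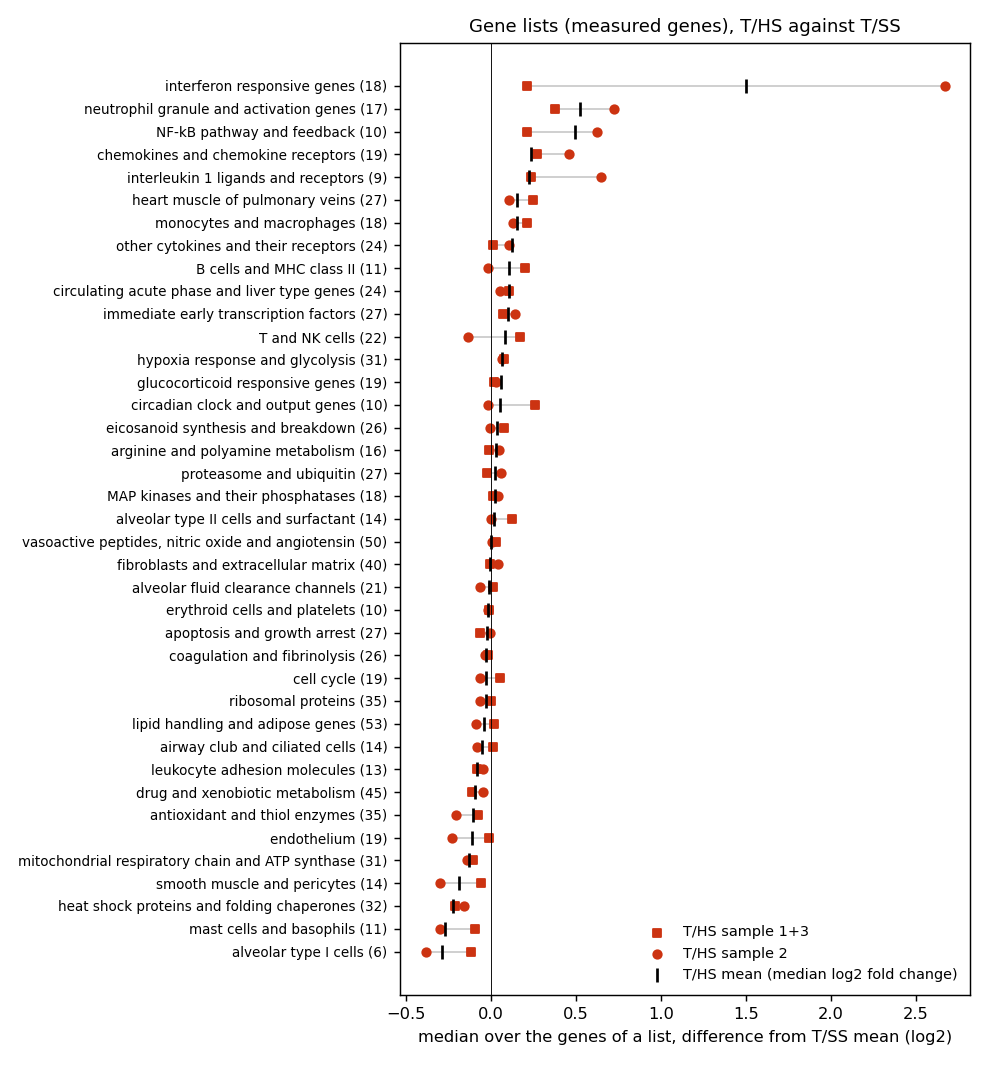
Median over the measured genes of each list (number in parentheses) of the log2 difference from the T/SS mean, for T/HS sample 1+3 (squares), T/HS sample 2 (circles) and the T/HS mean (ticks). Interferon responsive genes have the widest distance between the shocked samples, 0.21 against 2.67, and heat shock proteins lie below 0 in both.

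Heart muscle genes, which in rodent lung are known from the muscle sleeves of pulmonary veins, were higher in 9 of 27 measured genes and lower in 0, with a median of 0.15. That median was 0.08 without T/SS sample 2+3 and 0.33 without T/SS sample 1. Myh6, atrial myosin, read 1210 and 572 in T/SS against 1405 and 1361 in T/HS, so the T/SS samples differed more between themselves than T/SS sample 1 did from T/HS. With the duct tied the list went the opposite way, with 13 lower and 3 higher and a median of -0.31. In the tied-duct groups 12.4% of all probe sets were lower and 16.8% higher. The tied-duct summed intensity was 44040 in T/HS-LDL sample 1+3, 26145 in T/HS-LDL sample 2, and 48258 and 52593 in T/SS-LDL. The summed intensity of the list was 45996 and 31729 in T/SS and 50468 and 44112 in T/HS, and its part in other results was not tested.

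Genes with several probe sets showed how far a single probe set can be read. Of 56 named genes higher by over 2-fold with groups that did not overlap, 25 had several probe sets, and in 15 of those every probe set was higher in both T/HS samples. Of 18 such genes that were lower, 10 had several, and in 4 every probe set was lower. Fkbp1a, a prolyl isomerase that binds FK506, had 4 probe sets with differences from -0.54 to -1.03. Canx had 5, from -1.33 to 0.01. Cyb5a, cytochrome b5, had 3, at -0.92, -0.43 and -0.14. Calr had 3, at -0.85, -0.34 and -0.32. Fkbp1a and Calr were thus lower at every probe set, while Cat, Canx, Cyb5a, Mapk12 and Vegfa each had at least 1 probe set whose groups overlapped. Hspa5, the chaperone BiP, had a difference of -1.35 at 1 probe set and overlapping groups at its 2 others. RT1-Bb, a class II histocompatibility gene, was split in another way: 1 probe set read 4819 in T/SS sample 1 and 198 to 308 in the other 3 samples, and another 468 in T/SS sample 1 and 3317 to 4807 in the others.

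**Figure D4:**
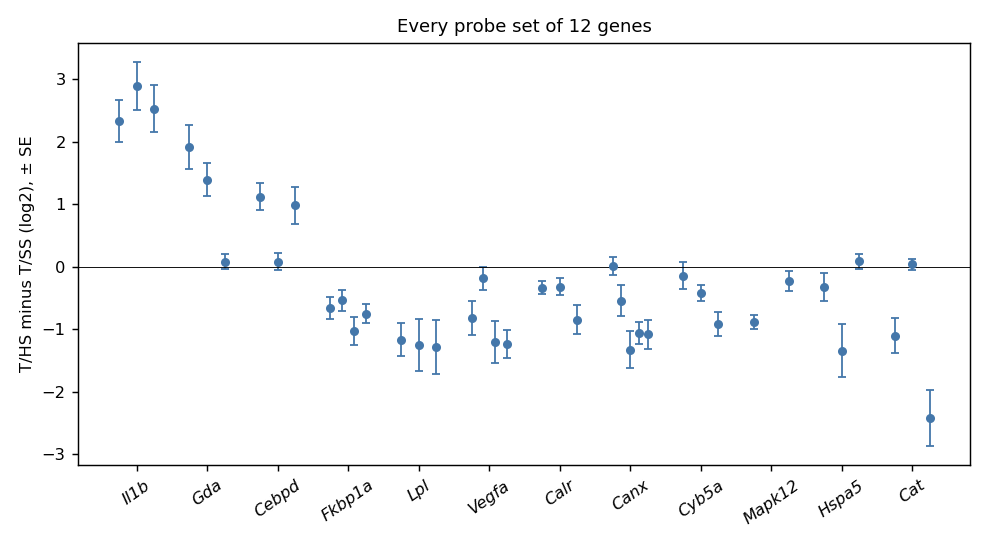
Log2 difference T/HS minus T/SS with limma's SE for every probe set of 12 genes. Probe sets of Il1b, Lpl and Fkbp1a lie together, while Cat runs from -2.42 to 0.04 and Canx from -1.33 to 0.01.

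The tied-duct groups are other samples given the same contrast, so they show which of these differences recurred there. Of the 76 probe sets higher by over 2-fold with the duct open, 46 (60.5%) were also higher in both T/HS-LDL samples, where 16.8% of all probe sets were, and 0 were lower in both. Of the 30 lower ones 6 (20.0%) were also lower, where 12.4% of all probe sets were, and 0 were higher. The median log2 difference of the 76 was 1.39 with the duct open and 0.51 with it tied, and of the 30 it was -1.21 and -0.28; over all probe sets with the duct tied it was 0.01. By the same rule 32 probe sets were higher by over 2-fold with the duct tied, and 17 were shared, which is 22.4% of the open-duct list and 53.1% of the tied-duct list; of 14 lower ones 0 were shared.

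Il1b (log2 2.21), Il1r2 (1.56), Hp (1.50), Ccr1 (1.38) and S100a8 (1.08) were higher in both T/HS-LDL samples too. Neutrophil genes likewise had 10 of 17 higher and 0 lower, with a median of 0.43. Smooth muscle and pericytes had a tied-duct median of -0.38, with 11 of 14 lower and 0 higher. The respiratory chain list had -0.11, with 11 of 31 lower and 0 higher, and type I cells -0.24, with 3 of 6 lower and 1 higher. Endothelium had -0.07, with 4 of 19 lower and 0 higher, and antioxidant enzymes -0.02, with 5 of 35 lower and 6 higher. Heat shock and mast cell lists, given above, had tied-duct medians above 0. Gda (-0.36), Itga1 (-0.12) and Rpl19l4 (-0.12) overlapped with the duct tied, as did Cat (-0.34), Lpl (0.28), Canx (0.07) and Mapk12 (0.04) among the lower genes. The difference between the open-duct and tied-duct effects was tested directly: 0 of 8740 probe sets passed, the smallest adjusted p was 1.0, and 261 had an unadjusted p under 0.05 and 40 under 0.01 (0.458%). The smallest unadjusted p among the genes named here was 0.000673 for Mapk12 (adjusted p = 1.0), so none of these differences is shown to be particular to an open duct.

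**Figure D5:**
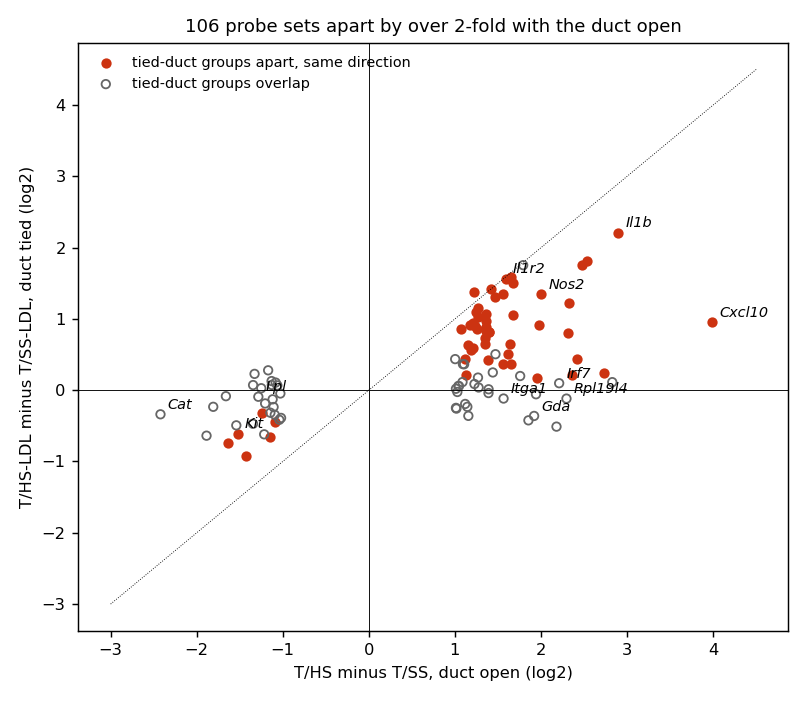
Log2 difference of shock with the duct open (horizontal axis) and tied (vertical axis) for the 106 probe sets apart by over 2-fold with the duct open; filled points had tied-duct groups that did not overlap in the same direction, and the dotted line marks equal differences. Of the 76 on the right 46 are filled, and of the 30 on the left 6.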

How the data were processed

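RNA of rat lung was hybridised to Affymetrix RG-U34A arrays, 12 in all, with 3 for each of the 4 groups. The intensity values were deposited by the authors on a linear scale and, per the submitters' processing notes, made with RMA (version not given in the sources used here), which corrects background, normalizes between arrays and sums up the probes of a set. The highest value of an array lay between 29933 and 32490 intensity units, and why the brightest values stop there was not tested. Here log2 was taken with no further scaling.

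Of 8799 probe sets, 59 controls were left out. Near-identical arrays were averaged, leaving 8 samples, and 1 model with the 4 groups was fitted with limma 3.58.1 in R 4.3.3 (lmFit, eBayes; 4 residual and 2.85 prior degrees of freedom, prior SD 0.131), two-sided, with Benjamini-Hochberg adjustment over 8740 probe sets. The number of arrays limits the precision. The fit was tested on simulated data. Tables came from Python 3.11.15 (pandas 2.3.3).

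Symbols came from the platform's annotation, which can be old: 7006 probe sets had 1, 308 several and 1426 none. The gene IDs of 6985 probe sets were found in RefSeq's GRCr8 table, and 0 symbols changed. In lists a gene is represented by its probe set with the highest mean. Lists with under 5 measured genes were not described, and 39 were. Lists can share genes, so their counts and medians are not independent. The largest difference in both the chemokine and the interferon list was that of Cxcl10 (3.99). In the neutrophil list it was 1.59, the value of Il1r2, which was also given with interleukin 1. Groups "do not overlap" when every sample of one lies above every sample of the other.

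Named genes were, with 1 probe set per symbol: 15 higher and 15 lower by the interval between groups, 10 and 10 by mean difference, 10 by smallest p, 12 and 12 by the difference between the T/HS samples, and per list up to 4 with groups that do not overlap and up to 2 by level. The study's comparison, the gene lists and these rules were chosen with earlier results of these data known. Alternatives were separate arrays with and without a replicate block, a random block, 1 array of each pair, fewer groups, quantile normalization, 50 added before log2, a filter on dim probe sets, and leaving out each sample.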

Additional observations from a re-analysis of the deposited data

Results flagged for a closer look

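For 13 named genes every T/HS sample lay on one side of the T/SS samples while every T/HS-LDL sample lay on the opposite side of the T/SS-LDL samples. The values given are the open-duct difference minus the tied-duct difference, on the log2 scale; each was covered by the test over all probe sets, in which the smallest adjusted p was 1.0. With groups this small, many of the 8740 probe sets separate in each comparison, as the shares in the report show.

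Heart muscle genes were higher after shock with the duct open and lower with it tied: the value was 1.75 for Myh6, 1.19 for Myl4, 1.02 for Ckmt2, which makes phosphocreatine in muscle mitochondria, and 0.15 for Pln, phospholamban, which read only 69.0 to 77.0 intensity units in the open-duct samples. Myh6 read 398 in T/HS-LDL sample 2, 1344 in T/HS-LDL sample 1+3, and 1468 and 1497 in T/SS-LDL. Myl4 read 542 in T/HS-LDL sample 2 against 956 in T/HS-LDL sample 1+3, and Ckmt2 138 against 237. The lower tied-duct means of Myh6, Myl4 and Ckmt2 thus rested mostly on T/HS-LDL sample 2. Aqp3, an epithelial water channel, was likewise higher with the duct open and lower with it tied (0.50). Aqp1, the water channel of endothelium and red cells, went the opposite way (-1.50), with 9549 and 8510 intensity units in T/SS against 7646 and 4902 in T/HS. With the duct tied it read 3200 in T/SS-LDL sample 1+3 and 6977 in T/SS-LDL sample 2, against 9633 and 8508 in T/HS-LDL. Lower with the duct open and higher with it tied were also Sult2a6, a sulfotransferase (-0.78), Cdk2, a cell cycle kinase (-0.44), Il3, a cytokine of blood cell growth (-0.40), Slco2a1, a prostaglandin transporter (-0.36), Fgb, a fibrinogen chain (-0.31), Il10, an anti-inflammatory cytokine (-0.26), and Scgb1a1 (-0.14).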

How the results depend on the processing

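The probe sets called depended on how the near-identical arrays were counted. As 12 separate arrays with no block, 629 probe sets passed, 444 higher and 613 lower had an unadjusted p under 0.01, and 1 passed for the difference between open and tied duct; with the replicate number as a block these were 456, 379, 563 and 1. Same-numbered T/HS and T/SS arrays deviated from their group means with correlations of 0.016, 0.0078 and -0.013. Because each group holds a near-identical pair, these values repeat nearly the same comparison. They cannot decide whether replicate numbers pair the samples, and the block is not read as a paired test. With the sample as a random block 25 passed, and 133 and 193 had a p under 0.01. Without the dim probe sets 47 higher probe sets had a p under 0.01. Quantile normalization gave the respiratory chain list a median of -0.11.

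Leaving out 1 sample at a time, with the lone sample taken to vary like the other groups, gave 0 to 139 called probe sets, 19 to 289 higher and 33 to 180 lower at a p under 0.01, 32 to 191 higher and 33 to 69 lower apart by over 2-fold, and 0 to 27 for the difference between open and tied duct. List medians ran from 0.22 to 0.65 for interleukin 1, 0.27 to 0.46 for chemokines, 0.38 to 0.72 for neutrophil genes, 0.21 to 2.67 for interferon responsive genes, -0.26 to -0.16 for heat shock proteins and -0.16 to -0.11 for the respiratory chain. Of 165 gene results 3 changed sign: Cd2 without the averaged T/HS sample (-0.46, and 4.98 without the other), Rsad2 without T/HS sample 2 (-0.0083, and 5.15 without the averaged one) and Ly6al without T/SS sample 1 (0.22, and -2.90 without the averaged one). The cause was not tested. All other alternatives kept the direction of all 165, except that the filter on dim probe sets left 148 of them.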
